A study of Mus musculus with 194 samples.

Results

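The 6 genes described here, Nr2f1, Nr2f2, Emx1, Emx2, Lhx2 and Pax6, encode transcription factors that pattern the developing cerebral cortex, and the measurement is how often a transposon had inserted around each of them. A locus was taken as the gene body with 50 kb on each side on the mouse genome GRCm38, and all 6 genes were found among the 21631 protein-coding loci of the reference. Together the 6 loci held 40862 of the 21931733 insertions in the 47 tables of the series. Levels are insertions per 1000000 insertions of a table, written IPM.

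As background, the cortical primordium is divided into areas by transcription factors that are graded across it. Emx2 and the nuclear receptors Nr2f1 (COUP-TFI) and Nr2f2 (COUP-TFII) favour caudal areas, whereas Pax6 favours rostral ones. Lhx2 acts earlier as a selector of cortical over hem fate, and Emx1 marks the dorsal lineage that gives rise to excitatory neurons and astrocytes. After birth Nr2f1 stays on in many cortical neurons, Nr2f2 marks a set of interneurons, and Pax6, Emx2 and Lhx2 are also expressed in astrocytes.

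In calling cards, a transposase writes a permanent mark, a transposon, into the DNA near where it was bound. In the tables read from RNA, 100% of the insertions within promoter sequences lay at the 4 letters TTAA, the target of the piggyBac transposase. That enzyme on its own is known to favour active enhancers, although the labels do not name it. AAV was injected on postnatal day 0 to 1 in all animals. In the self-reporting groups the insertion was read from cortical RNA, with each cortex divided into 10 parts that were indexed apart and combined per animal.

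C57bl6J (2 animals) received viruses that need no Cre. The other groups of animals are named after a Cre line. Syn1Cre (6 animals) takes its name from the synapsin promoter, which is active in neurons, and GFAPCre (6 animals) from the GFAP promoter, which is active in astrocytes and in some neural progenitors. Their controls without Cre are Syn1CreNeg (6 animals) and GFAPCreNeg (6 animals). Syn1Cre_SP1_P10 (3 animals) and Syn1Cre_SP1_P28 (4 animals) carry the name of the transcription factor SP1. They were collected on postnatal day 10 and 28, respectively. For the other groups no age at collection is given here. Against Syn1Cre, the SP1 label and any difference in age therefore cannot be told apart. The SP1 construct is not described in the labels. Rbp4Cre_TRAP (4 animals, 2 libraries each) was read from whole forebrain by TRAP, and Rbp4 Cre lines are used for layer 5 projection neurons. Frontflip_GFAPCre (3 animals) and Frontflip_GFAPCreNeg (3 animals) name a further construct, which the labels do not describe. BrokenHeart (3 animals) was read from cortical DNA by inverse PCR, and N2a is a mouse neuroblastoma line whose 3 experiments the authors pooled in 1 table. Replicate numbers in the labels were read as separate animals, and p-values measure the spread between these tables.

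Promoter sequence bears on where insertions can fall, since these insertions lie at TTAA. The 250 bases before a listed start are shown 5′ to 3′ on the gene's strand, from RefSeq GRCm38, for 5 promoters that show this contrast. Capitals mark TTAA and the GC box GGGCGG or its reverse complement CCGCCC, the letters that SP1 is known to bind. Emx2 is chr19:59458440-59458689 (plus strand) and Pax6 is chr2:105668646-105668895 (plus strand). Lhx2 is chr2:38339031-38339280 (plus strand) and Emx1 is chr6:85187681-85187930 (plus strand). The Nr2f1 window, chr13:78196450-78196699 (minus strand), lies before the second of 2 listed starts and inside the gene body.
Emx2: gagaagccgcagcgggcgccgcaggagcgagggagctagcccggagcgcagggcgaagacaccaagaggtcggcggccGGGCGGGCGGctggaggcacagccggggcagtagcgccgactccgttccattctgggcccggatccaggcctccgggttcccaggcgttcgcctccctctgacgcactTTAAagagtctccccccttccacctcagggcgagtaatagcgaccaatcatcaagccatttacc
Pax6: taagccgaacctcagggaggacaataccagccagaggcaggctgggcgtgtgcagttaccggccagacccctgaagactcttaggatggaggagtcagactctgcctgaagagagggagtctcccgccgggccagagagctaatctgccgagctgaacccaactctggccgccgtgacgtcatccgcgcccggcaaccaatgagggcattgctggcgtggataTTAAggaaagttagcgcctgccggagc
Lhx2: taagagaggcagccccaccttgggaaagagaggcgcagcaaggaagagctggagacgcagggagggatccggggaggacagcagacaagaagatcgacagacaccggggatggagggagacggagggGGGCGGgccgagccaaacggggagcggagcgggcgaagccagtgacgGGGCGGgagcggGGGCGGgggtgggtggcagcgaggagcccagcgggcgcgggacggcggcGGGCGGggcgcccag
Emx1: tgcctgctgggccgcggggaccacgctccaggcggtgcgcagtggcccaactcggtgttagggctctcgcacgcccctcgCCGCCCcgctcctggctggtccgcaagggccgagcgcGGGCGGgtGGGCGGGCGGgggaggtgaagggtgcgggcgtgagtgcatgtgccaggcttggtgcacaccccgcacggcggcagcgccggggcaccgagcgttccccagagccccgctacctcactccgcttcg
Nr2f1: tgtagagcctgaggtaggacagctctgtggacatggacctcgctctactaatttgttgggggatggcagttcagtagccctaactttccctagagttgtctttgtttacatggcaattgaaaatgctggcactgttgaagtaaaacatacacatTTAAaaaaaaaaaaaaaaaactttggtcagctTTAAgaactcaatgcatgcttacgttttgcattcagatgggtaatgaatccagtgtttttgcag
Of 21045 promoters of this length, 45.4% held TTAA and 43.1% held GGGCGG on either strand. The Emx2 promoter held 1 TTAA, 64 bases before the start, and 2 GC boxes that overlap. That TTAA carried 40 insertions in 23 animals. Among them were 6 of the 5573110 insertions of Syn1Cre and 12 of the 5201701 of GFAPCre. There were also 8 of the 1083099 of Syn1Cre_SP1_P28 and 2 of the 271946 of Syn1Cre_SP1_P10. Counts at these promoters are not corrected for depth. The Pax6 promoter shown held 1 TTAA, 27 bases before the start, with 12 insertions in 7 animals. Of these 12, 8 were in GFAPCre, 2 in GFAPCreNeg, 2 in C57bl6J and 0 in Syn1Cre. The Lhx2 and Emx1 promoters shown held 4 GC boxes each and 0 TTAA, and they carried 0 insertions. Of the listed starts not shown, the second of Lhx2 had 0 GC boxes, 0 TTAA and 0 insertions, the second of Pax6 had 2 TTAA and 11 insertions, the other Nr2f1 start had 1 GC box, 0 TTAA and 0 insertions, and that of Nr2f2 had 1 TTAA and 4 insertions. The 2 TTAA of the Nr2f1 window, 96 and 64 bases before its start, carried 37 insertions in 21 animals and 101 insertions in 28 animals.

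Depth differed widely between tables. In Syn1Cre, GFAPCre and their controls it ran from 97519 insertions in a Syn1CreNeg animal to 1505413 in a GFAPCre animal, and C57bl6J reached 2186743. The SP1 groups held 86842 to 577609, BrokenHeart 42511 to 98197, Frontflip_GFAPCre 160631 to 205559 and Rbp4Cre_TRAP 24408 to 57014. Frontflip_GFAPCreNeg held only 2341 to 9601, so that its levels rest on 0 to a few insertions per locus and table. Syn1Cre animals share no sequencing pool with GFAPCre or Syn1CreNeg animals. Nor do the SP1 groups, Rbp4Cre_TRAP and C57bl6J with Syn1Cre, or Frontflip_GFAPCre and C57bl6J with GFAPCre. BrokenHeart shares none with C57bl6J, and Syn1CreNeg none with GFAPCreNeg. In all these comparisons a pool effect cannot be told apart from a group effect. Counting intervals and floors cover counting error only. In these bulk samples, fewer cells of a type and fewer insertions per cell cannot be told apart.

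Per kilobase of locus the 6 genes covered a wide range. Nr2f1 was the densest of them: in Syn1Cre it held 9.17 IPM per kb, against a median of 0.332 over all loci, and only 1 of the 21631 loci was denser. In GFAPCre and in C57bl6J 2 loci were denser than Nr2f1, and in Rbp4Cre_TRAP 6 were. Nr2f2 followed with 3.24 IPM per kb in Syn1Cre, where 42 loci were denser, and Lhx2 with 2.08, where 154 were denser. Emx1 (1.04), Pax6 (0.836) and Emx2 (0.407) were sparser in Syn1Cre. In GFAPCre the order of the last 3 differed: Pax6 held 1.56 IPM per kb, Emx1 0.854 and Emx2 0.735. Only 376 loci were denser than Pax6 in GFAPCre, against 2246 in Syn1Cre. TTAA density, which limits where insertions can fall, was not corrected for.

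Nr2f1 varied little between the cortical groups read from RNA with a Cre line or with C57bl6J. Its 6 Syn1Cre animals held 878 to 1261 IPM, with a median of 942. GFAPCre ran from 781 to 1204 (median 1023), Syn1CreNeg from 844 to 1352 (median 1070) and GFAPCreNeg from 890 to 1379 (median 951). Those 4 groups overlap throughout. The C57bl6J animals held 986 and 894, and the Rbp4Cre_TRAP animals held 1000, 973, 998 and 860. Frontflip_GFAPCre stood above all of them with 1406, 1967 and 1768, and BrokenHeart below with 292, 367 and 329. N2a held 78.1 (95% Poisson interval 60.0 to 99.9).

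Nr2f2 ranged over 310 to 475 IPM in Syn1Cre (median 353), 325 to 486 in GFAPCre (median 401), 176 to 454 in Syn1CreNeg (median 344) and 286 to 365 in GFAPCreNeg (median 320). These ranges overlap too. BrokenHeart, at 189, 81.5 and 94.1, was the lowest group read from animals. In N2a, Nr2f2 was the densest of the 6 loci, with 226 IPM or 1.97 per kb, ahead of Nr2f1 with 0.711 per kb. Emx2 had 1 insertion in the whole N2a table, 1.24 IPM.

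**Figure D1:**
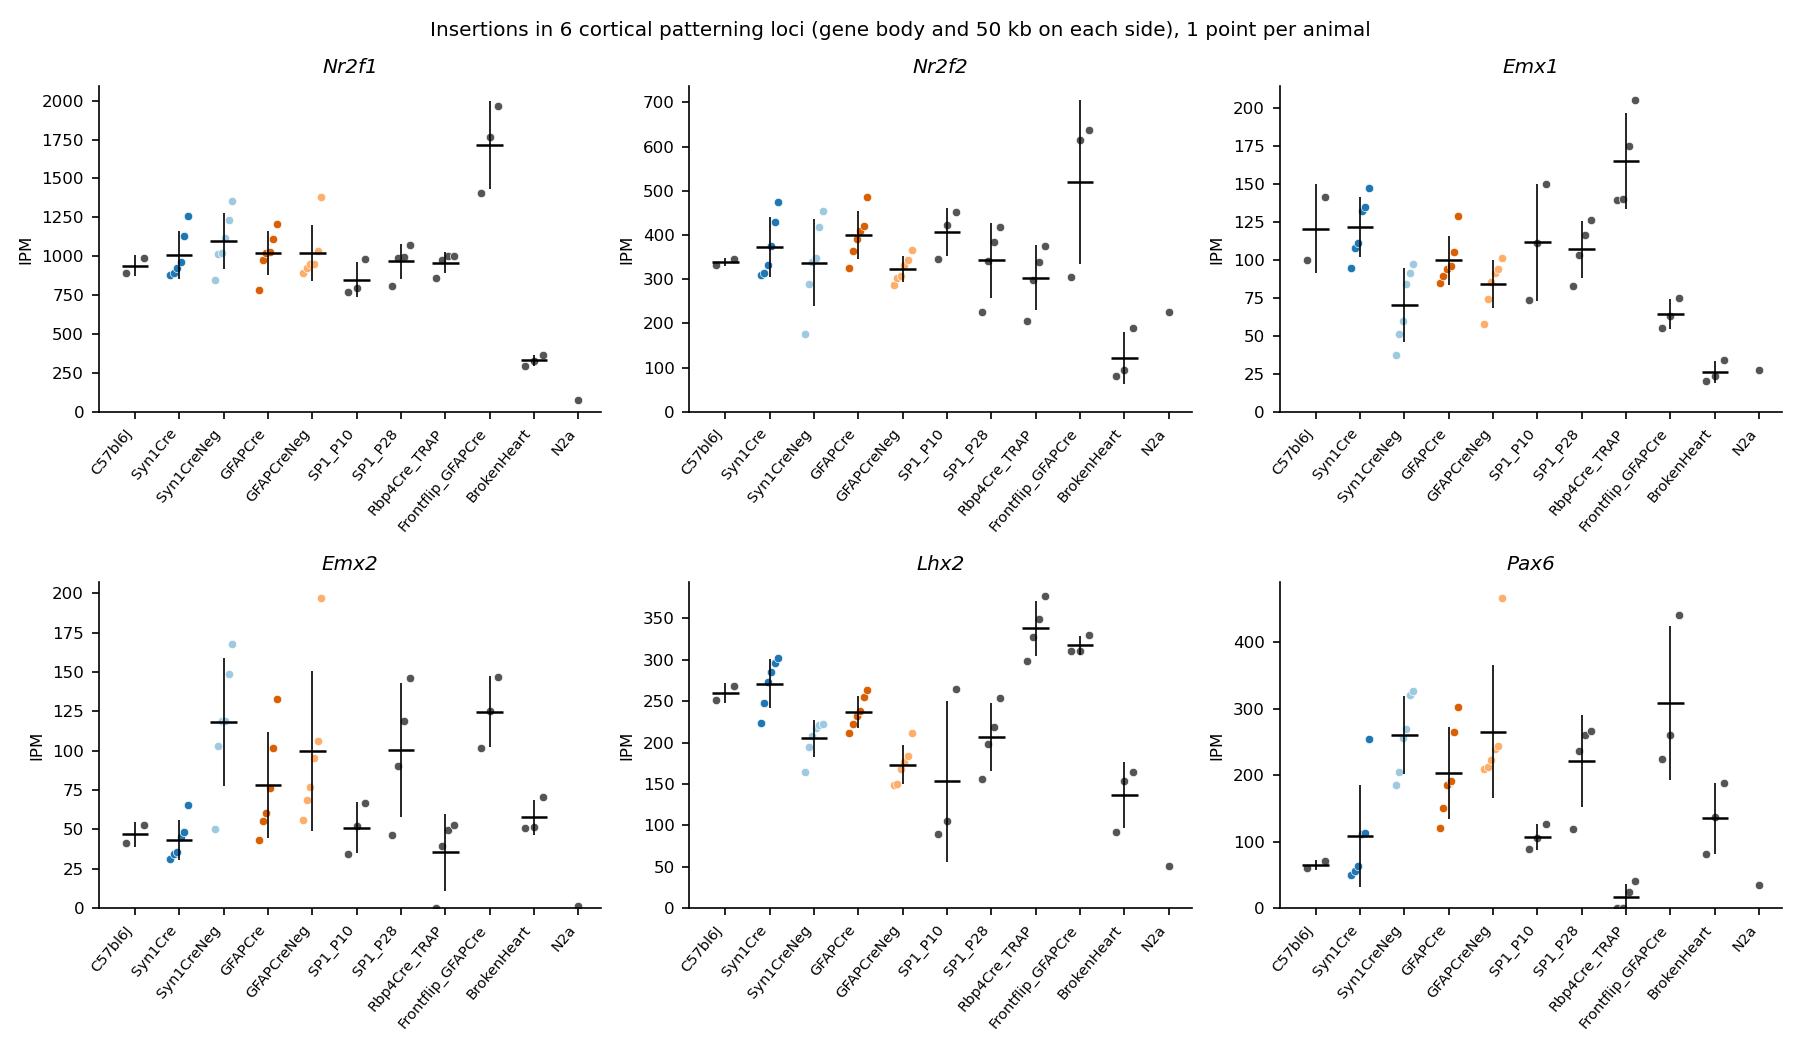
IPM in the body of each gene with 50 kb on each side, with 1 point per animal, a bar at the group mean, a line of 1 SD on each side and N2a as 1 table; Frontflip_GFAPCreNeg is left out because its tables hold 2341 to 9601 insertions. Nr2f1 lies between 772 and 1379 in the plotted cortical and forebrain groups other than Frontflip_GFAPCre and BrokenHeart, whereas Pax6 runs from 0 in 2 Rbp4Cre_TRAP animals to 466 in a GFAPCreNeg animal.

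Insertions were not spread evenly over the loci. Around Pax6, 60.8% of them (2046 of 3367) lay in 10 kb from 45 to 55 kb after the gene's start, at chr2:105713896-105723895. This stretch starts 15.5 kb after the end of Pax6 and lies within Elp4, a subunit gene of the Elongator complex that runs into the end of Pax6 from the other side. As background, introns of Elp4 are known to hold distant enhancers of Pax6. In all, 74.7% of the insertions in the Pax6 locus lay within the span of Elp4, so the measure at Pax6 is for the most part one of its downstream flank. The position most widely used, chr2:105719492-105719495, carried 211 insertions in 39 of 46 animals but in 0 of 4 Rbp4Cre_TRAP animals.

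Emx2 had 45.2% of its insertions 5 to 10 kb after the start, around the end of this short gene, and 26.0% in the 5 kb before the start. The latter stretch lies in Emx2os, the antisense RNA, whose span held 43.2% of the locus's insertions. The most used position, chr19:59455737-59455740, lies 2.95 kb before the start and carried 105 insertions in 33 animals. Lhx2 was the only one of the 6 with most insertions in its body: 66.1% of the Syn1Cre insertions and 70.7% of the GFAPCre insertions. The stretch 5 to 10 kb after its start held 29.5% of the insertions and overlaps the long noncoding RNA Gm27197.

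Nr2f1 had its insertions in 2 flanks: 16.3% lay 25 to 30 kb after the start, in the noncoding RNAs Gm38604 and 3110006O06Rik, and 13.8% lay 5 to 10 kb before it, in A830082K12Rik. The body held 662 of 5427 in Syn1Cre and 562 of 5121 in GFAPCre. Nr2f2 had 16.7% of its insertions 15 to 20 kb after the start, in a stretch with no annotated gene, and 15.3% in its first 5 kb. Emx1 had 17.4% of its insertions 30 to 35 kb after the start, inside the neighbouring Sfxn5, a mitochondrial carrier gene, and 16.3% from 5 to 10 kb within its own body.

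**Figure D2:**
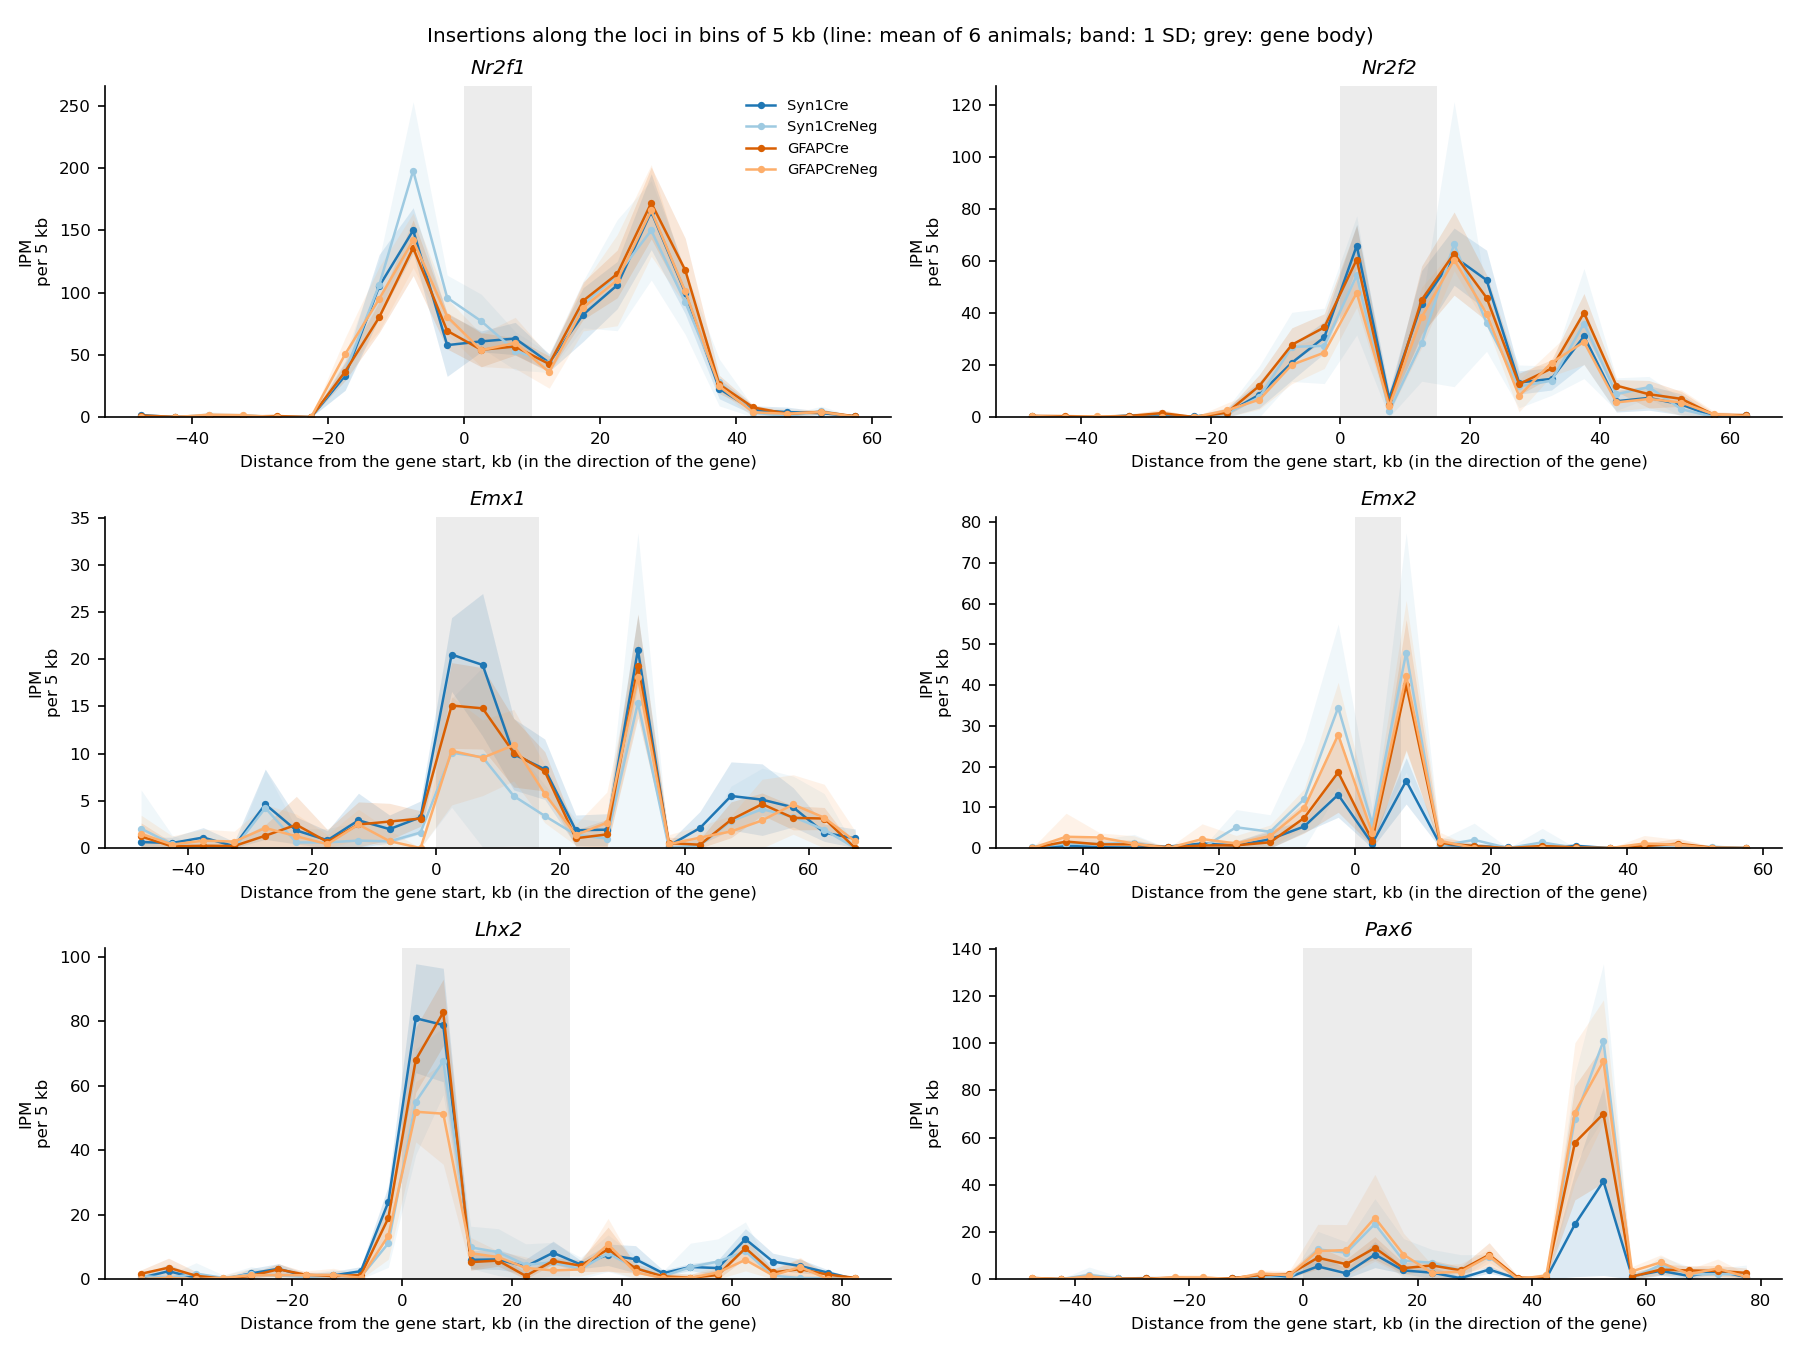
Mean IPM in 5 kb steps against distance from the gene's start in kb, read in the direction of transcription, for Syn1Cre, Syn1CreNeg, GFAPCre and GFAPCreNeg; lines are means of 6 animals, bands 1 SD and grey the gene body. The peak 45 to 55 kb after the start of Pax6 holds 60.8% of its insertions, and Lhx2 has its peak within 10 kb after the start.

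The comparison of Syn1Cre with GFAPCre sets a line named after a neuronal promoter against one named after an astrocytic promoter. The marker loci separated them only in part. All 10 interneuron marker loci were called higher in Syn1Cre, whereas 0 of 12 neuron marker loci and 1 of 12 astrocyte marker loci (Aldh1l1, lower) were called by edgeR. The summed neuron markers overlapped, with 4143 to 4495 IPM in Syn1Cre and 3826 to 4555 in GFAPCre. Against its own control without Cre, GFAPCre had 0 astrocyte markers called higher and 4 of 12 called lower. Emx2 was lower in Syn1Cre. The Syn1Cre animals held 31.0 to 65.4 IPM (median 40.6) and the GFAPCre animals 43.2 to 133 (median 68.4), so that the groups overlap. The difference was -0.90 on the log2 scale (SE 0.24, 1.87-fold lower; edgeR, adjusted p = 0.0477), just inside the threshold of 0.05. It passed in only 2 of the 12 fits that left out 1 animal, with adjusted p-values from 0.00458 to 0.137. Of the 6 genes 1 was called here, and 1.95% of all loci tested were. Here and below, shares of all loci called are of the loci with enough insertions to be tested in that comparison.

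Pax6 had the larger difference in this comparison, but it missed the threshold. The Syn1Cre animals held 55.8, 63.2, 50.4, 113, 255 and 112 IPM, and the GFAPCre animals 185, 120, 303, 265, 151 and 191. Of the 6 Syn1Cre animals 5 lay below every GFAPCre animal, and animal 5 lay above 4 of them. Animals 1 to 3 and animals 4 to 6 also come from separate sequencing pools, and the first 3 held 50.4 to 63.2 against 112 to 255 in the others. With animals 1 to 3 alone the log2 difference from GFAPCre was -1.99 for Pax6 (edgeR, adjusted p = 1.81e-06) and -1.31 for Emx2 (edgeR, adjusted p = 0.00140), and calls over all loci went from 335 to 2686. With all 6 the Pax6 difference was -1.04 (SE 0.30; edgeR, adjusted p = 0.0670). Without Syn1Cre animal 5 it was -1.36 (edgeR, adjusted p = 0.000172), and without GFAPCre animal 2 it was -1.18 (edgeR, adjusted p = 0.0291). Syn1Cre animal 5 also had the highest summed level of 12 astrocyte marker loci in its group, 3480 IPM against 1178 to 1500 in the other 5. Its depth, 443158 insertions, was the lowest of the group. The part of these in the Pax6 value was not tested.

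The 12 astrocyte marker loci were summed in the other groups as well. All 12 had insertions in each of these groups, and their summed level was 1501 to 2956 IPM in GFAPCre, 2753 to 5398 in GFAPCreNeg, 3596 to 4661 in Syn1CreNeg and 947 to 1041 in C57bl6J. In GFAPCreNeg, animal 6 had both the highest sum and the highest Pax6 level, 466. In Syn1CreNeg the 2 did not go together. Animal 1 had the highest sum, 4661, with Pax6 at 205, and animal 6 had the highest Pax6 level, 327, with a sum of 3937. The sum of 10 interneuron marker loci was 2284 to 2683 in Syn1Cre and 567 to 709 in GFAPCre. The part of either list in the levels at Pax6 and Emx2 was not tested.

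**Figure D3:**
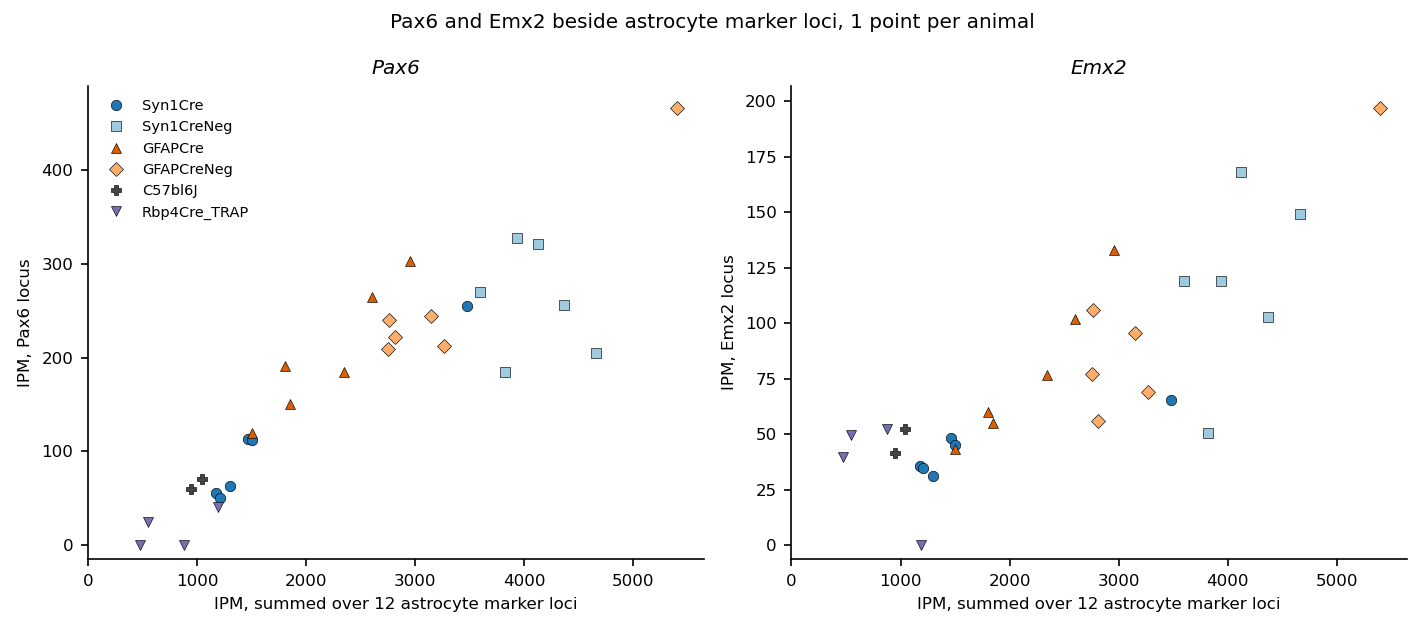
IPM in the Pax6 locus (left) and the Emx2 locus (right) against the summed level of 12 astrocyte marker loci, with 1 point per animal of Syn1Cre, Syn1CreNeg, GFAPCre, GFAPCreNeg, C57bl6J and Rbp4Cre_TRAP. At Pax6, Syn1Cre animal 5 (255 and 3480) lies away from the other 5 Syn1Cre animals, which hold at most 113 and 1500; points of 1 group share construct, pool and depth range.

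The other 4 genes were not called between Syn1Cre and GFAPCre. The log2 differences were 0.20 for Emx1 (95% interval -0.01 to 0.41), 0.09 for Lhx2 (-0.10 to 0.29), -0.10 for Nr2f1 (-0.35 to 0.14) and -0.18 for Nr2f2 (-0.43 to 0.06). At these intervals a change as large as that of Emx2 would lie outside the range for each of the 4.

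Against the controls without Cre, 3 of the 6 genes changed in Syn1Cre, where 28.3% of all loci were called. Emx2 fell from 50.4 to 168 IPM in Syn1CreNeg (median 119) to 31.0 to 65.4 in Syn1Cre, a log2 difference of -1.67 (SE 0.20, 3.19-fold; edgeR, adjusted p = 1.75e-06). Pax6 fell by 1.53 on the log2 scale (SE 0.28, 2.88-fold; edgeR, adjusted p = 0.000134). Its Syn1CreNeg animals held 205, 256, 185, 270, 321 and 327, and only Syn1Cre animal 5 reached into that range.

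Emx1 rose by 0.51 (SE 0.15, 1.42-fold; edgeR, adjusted p = 0.0132). Its Syn1Cre animals held 132, 135, 147, 111, 94.8 and 108 IPM and its Syn1CreNeg animals 37.2, 51.3, 84.0, 97.1, 59.8 and 91.4. The call was lost when only distinct positions were counted (edgeR, adjusted p = 0.0887) and without Syn1CreNeg animal 5 (edgeR, adjusted p = 0.0768). Sfxn5, whose span holds 35.8% of the insertions of the Emx1 locus, went the other way at its own locus, by -0.55 (SE 0.14; edgeR, adjusted p = 0.00346).

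Lhx2 did not overlap between these groups, with 224 to 302 IPM in Syn1Cre and 165 to 223 in Syn1CreNeg, but its difference of 0.29 missed the threshold (SE 0.13; edgeR, adjusted p = 0.0827). Without TMM, the scaling between tables, it was 0.41 (edgeR, adjusted p = 0.0122). Nr2f1 differed by -0.22 (95% interval -0.49 to 0.05) and Nr2f2 by 0.06 (-0.27 to 0.40).

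In the GFAP line 1 of the 6 genes was called against its controls, where 7.35% of all loci were. Lhx2 rose by 0.35 in GFAPCre (SE 0.11, 1.28-fold; edgeR, adjusted p = 0.0357). GFAPCre animals held 222, 238, 212, 263, 255 and 232 IPM and GFAPCreNeg animals 177, 212, 150, 168, 184 and 149, so that the groups touch at 212. The call held in 4 of 12 fits without 1 animal. Over distinct positions the difference was 0.08 (edgeR, adjusted p = 0.743). Among animals that share pools, with the pool as a block, it was 0.57 (edgeR, adjusted p = 0.108). Pax6 was at -0.43 (SE 0.19; edgeR, adjusted p = 0.181) and Emx2 at -0.37 (SE 0.24; edgeR, adjusted p = 0.392).

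Whether the change with Cre differed between the lines was tested by the interaction term, the change in the Syn1 line minus that in the GFAP line. It was -1.31 for Emx2 (SE 0.35; edgeR, adjusted p = 0.0669) and -1.10 for Pax6 (SE 0.37; edgeR, adjusted p = 0.171). No member was called by edgeR or by DESeq2, while 2, Emx2 and Pax6, had an unadjusted p under 0.05, and 0.617% of all loci were called. Without Syn1Cre animal 5 both passed: Pax6 at -1.46 (edgeR, adjusted p = 0.00134) and Emx2 at -1.41 (edgeR, adjusted p = 0.00649). Of the 24 fits that left out 1 animal, Emx2 passed in 4 (edgeR, highest adjusted p = 0.219). Pax6 passed in 2 of them (edgeR, highest adjusted p = 0.314). The other 4 genes had interaction terms from -0.16 (Nr2f2) to 0.39 (Emx1).

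Between the groups without Cre, Syn1CreNeg and GFAPCreNeg, 0 of 6 genes were called by edgeR and 0 by DESeq2, 1 (Emx2) had an unadjusted p under 0.05, and 0.128% of all loci were called. Emx2 differed by 0.43 (95% interval 0.06 to 0.80) and the other genes by -0.16 to 0.16. Without GFAPCreNeg animal 6, Emx2 was called at 0.61 (edgeR, adjusted p = 0.0177).

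The cluster downstream of Pax6 and the gene body gave the same order of Syn1Cre, GFAPCre and Syn1CreNeg, but not of all groups. In the cluster the Syn1Cre animals held 17.3 to 183 IPM (median 48.3), GFAPCre 63.1 to 197 (median 118) and Syn1CreNeg 92.4 to 225 (median 167). In the body alone they held 10.1 to 47.4 (median 22.6), 28.6 to 63.3 (median 42.6) and 27.9 to 92.3 (median 69.7). Syn1Cre_SP1_P28, with a median of 121 in the cluster and 80.1 in the body, lay below Syn1CreNeg in the first and above it in the second. With the body alone as the window, Pax6 differed between Syn1Cre and GFAPCre by -0.81 (edgeR, adjusted p = 0.0839). Elp4, whose locus holds the same cluster and so is no separate measurement, fell by 1.17 from Syn1CreNeg to Syn1Cre (SE 0.27; edgeR, adjusted p = 0.00146).

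The Rbp4Cre_TRAP tables had low depth, and whether they come from layer 5 neurons was not tested. Pax6 was nearly empty there, with 0, 0, 1 and 1 insertions in the 4 animals, or 0, 0, 25.0 and 41.0 IPM. A count of 0 allows up to 52.6 and 59.6 IPM in the first 2 animals. All 4 lay below all 6 Syn1Cre animals. Over the groups, 2 of 171833 insertions against 551 of 5573110 gives a ratio of 0.118 with an exact counting interval of 0.0142 to 0.427. The edgeR difference was -3.24 (SE 1.32) with an adjusted p of 0.285. An exact two-sided permutation test over the animals, chosen after seeing the data, gave p = 0.00952, the smallest that 4 against 6 animals allow, unadjusted over the 6 genes tried.

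No gene of the 6 was called between Rbp4Cre_TRAP and Syn1Cre by edgeR or by DESeq2, only Pax6 had an unadjusted p under 0.05, and 0.543% of all loci were called. Emx1 was at 140, 139, 175 and 205 IPM against 94.8 to 147 in Syn1Cre. Lhx2 was at 298, 377, 349 and 328 against 224 to 302. Their unadjusted p by the same exact permutation test was 0.0381 and 0.0190, but the edgeR differences were 0.25 (95% interval -0.26 to 0.77) and 0.19 (-0.19 to 0.58). Emx2, with 7 insertions in the group, had a ratio of 0.958 to Syn1Cre with an exact interval of 0.381 to 2.00. The astrocyte marker sum was 477 to 1188 IPM in Rbp4Cre_TRAP, and the interneuron sum 403 to 499. Their part in the Pax6 level was not tested, and forebrain TRAP RNA and cortical RNA cannot be told apart from the line.

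The SP1 groups were set against Syn1Cre, the same line without that label and with no age at collection given here. Direction here depends on the scaling, and much of the genome differed: 54.4% of all loci were called at P28 and 43.0% at P10. At P28 Nr2f1 (-0.51), Nr2f2 (-0.55), Emx1 (-0.53) and Lhx2 (-0.76) were called lower, 4 of 6, with edgeR adjusted p-values of 0.00888, 0.0115, 0.00589 and 0.000244; 27.5% of all loci were called lower. Without TMM none of these 4 passed, at -0.07, -0.10, -0.10 and -0.32, whereas Emx2 (0.98; edgeR, adjusted p = 0.00342) and Pax6 (0.98; edgeR, adjusted p = 0.0150) were called higher, as were 43.2% of all loci. That choice moved the median of all loci from -0.06 to 0.37 and the share of calls that were higher from 49.5% to 81.1%. With TMM, neuron marker loci were also mostly called lower, 7 of 12 with 2 higher at P28 (median -0.41) and 8 of 12 with 1 higher at P10 (median -1.02). Their sums without TMM, 3523 to 3913 IPM at P28 and 3213 to 3357 at P10, lay below the Syn1Cre range of 4143 to 4495. Of 10 interneuron marker loci, 2 were called higher and 5 lower at P28 (median -0.26). At P10 5 of them were called higher and 1 lower (median 0.32). The interneuron sums were 2114 to 2588 IPM at P28 and 3178 to 4155 at P10, against 2284 to 2683 in Syn1Cre. The part of either list in the levels of the 6 genes was not tested.

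Relative to the median of all loci, at P28 Emx2 and Pax6 stood above it in both scalings and the other 4 genes below it. At P10 Emx2 (-0.22) and Pax6 (-0.44) lay below the median of -0.18 with TMM. Without TMM they were at 0.27 and 0.06, also below the median at that age. The plain levels at P28 were 237, 266, 261 and 119 IPM for Pax6, and all 4 lay above 5 of the 6 Syn1Cre animals, which held 50.4 to 113. They were 90.6, 119, 146 and 46.7 for Emx2. The fourth animal, the lowest in both, was also the lowest of its group in astrocyte marker sum, 1868 against 3363 to 3949 IPM. Its part was not tested.

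At P10, 3 of 6 genes were called lower: Nr2f1 (-0.74; edgeR, adjusted p = 0.00173), Emx1 (-0.62; edgeR, adjusted p = 0.0432) and Lhx2 (-1.33; edgeR, adjusted p = 0.000222). Only Lhx2 passed without TMM, at -0.83 (edgeR, adjusted p = 0.00879), with a median of all loci of 0.31 there against -0.18 with TMM. Of all loci, 21.0% were called lower with TMM and 8.66% without it. The share of calls that were higher moved from 51.1% to 79.2%. The Lhx2 levels were 265, 89.1 and 105 IPM, so that 2 of the 3 animals lay below all Syn1Cre animals and the first within their range of 224 to 302. The call of Emx1 was lost in 5 of 9 fits without 1 animal.

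Between the ages, Pax6 was higher at P28 by 1.01 (SE 0.31, 2.02-fold; edgeR, adjusted p = 0.0438), the only call among 5 genes tested, where 7.03% of all loci were called. Emx2 was below the count filter. The P10 animals held 127, 89.1 and 105 IPM for Pax6, and of the P28 animals only the fourth, at 119, lay in that range. The call was lost in 6 of 7 fits without 1 animal, with adjusted p-values up to 0.224, and without TMM (edgeR, adjusted p = 0.0723). The astrocyte marker sum was 1448 to 2128 IPM at P10, and its part was not tested.

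Windows of 1 kb on each side of a gene start were tested as well, since SP1 is known for binding at GC-rich promoters. Only 2 of the 9 listed starts of the 6 genes passed the count filter, the second Nr2f1 start (position 78196449 on chromosome 13) and the Nr2f2 start. The Nr2f1 window held 44.1 ± 5.41 IPM in Syn1Cre (SD, n = 6), 48.8 ± 8.15 at P28 (n = 4) and 47.7 ± 4.19 at P10 (n = 3). The Nr2f2 window held 32.0 ± 4.82, 43.3 ± 4.85 and 54.4 ± 27.4. Over 21020 listed starts the mean level was 2.87 in Syn1Cre, 9.30 at P28 and 10.8 at P10.

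The Nr2f windows overlapped between the groups, while the mean over all listed starts was higher with SP1. With TMM both were called lower at P28, by -1.64 for Nr2f1 (edgeR, adjusted p = 7.31e-09) and -1.40 for Nr2f2 (edgeR, adjusted p = 4.35e-07). Of the 3437 start windows that passed the count filter there, 64.4% were called and 29.7% called lower. At P10 the differences were -2.16 (edgeR, adjusted p = 3.03e-07) and -1.49 (edgeR, adjusted p = 0.000132). Of the 3492 start windows tested at that age, 59.9% were called and 30.1% called lower. Without TMM the signs turned, to 0.20 and 0.46 at P28 and to 0.14 and 0.81 at P10, and none of these passed. The median over all starts tested was then 2.05 at P28 and 2.37 at P10, against 0.15 and 0.07 with TMM. Between the ages no member start passed the count filter.

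Without any Cre line, C57bl6J lay near Syn1Cre. Of the 6 genes 0 were called by edgeR and 0 by DESeq2, 0 had an unadjusted p under 0.05, and 0.746% of all loci were called. The log2 differences ran from -0.52 for Pax6 (95% interval -1.33 to 0.29) to 0.27 for Emx2 (-0.16 to 0.69). Against GFAPCre, Pax6 was lower in C57bl6J: 60.2 and 70.9 IPM lay below all 6 GFAPCre animals. The difference was -1.54 (SE 0.24, 2.91-fold; edgeR, adjusted p = 0.000113), the only call of 6 where 16.1% of all loci were called. Emx2 was at -0.60 (SE 0.25; edgeR, adjusted p = 0.0996). Against GFAPCre, 9 of 12 astrocyte marker loci were called lower in C57bl6J and 0 higher (median -1.01). All 10 interneuron marker loci were called higher (median 1.71). The part of these lists was not tested.

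Frontflip_GFAPCre differed from GFAPCre at Nr2f1, by 0.81 (SE 0.14, 1.76-fold; edgeR, adjusted p = 0.00179), with no overlap of animals. It was the only one of 6 genes called, where 2.09% of all loci were, although all 6 had an unadjusted p under 0.05. The astrocyte marker sum was 3420 to 5029 IPM in Frontflip_GFAPCre against 1501 to 2956 in GFAPCre, with 3 of 12 marker loci called higher and a median of 0.66; its part was not tested. The body alone gave 0.22 (edgeR, adjusted p = 0.716), and the body held 7.05% of the Nr2f1 insertions in Frontflip_GFAPCre against 9.81% to 11.9% in the GFAPCre animals. Fam172a, whose span reaches into the downstream flank of Nr2f1, rose at its own locus by 0.64 (SE 0.13; edgeR, adjusted p = 0.00479), with insertions shared between both loci. Without Frontflip_GFAPCre animal 3 the Nr2f1 difference was 0.77 (edgeR, adjusted p = 0.0552). Lhx2 (311, 311 and 330) and Emx1 (63.2, 74.7 and 55.1) also lay outside the GFAPCre ranges of 212 to 263 and 84.9 to 129, above and below, but missed the threshold (edgeR, adjusted p = 0.0798 and 0.307).

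Against Frontflip_GFAPCreNeg, Nr2f1 was higher by 1.35 (SE 0.36; edgeR, adjusted p = 0.00775), 1 call of 5 genes tested where 5.01% of loci were called. Without TMM it was 0.66 (edgeR, adjusted p = 0.358), and the control tables held only 19 insertions at Nr2f1 in all. The median over all loci tested was 0.55 with TMM. The animals overlapped, since control animal 3 held 1589 IPM and Frontflip_GFAPCre animal 1 held 1406.

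Read from DNA, the loci looked different. Against C57bl6J, BrokenHeart was lower at Nr2f1 by -1.69 (SE 0.20, 3.22-fold; edgeR, adjusted p = 4.80e-15), at Nr2f2 by -1.76 (SE 0.28, 3.39-fold; edgeR, adjusted p = 1.31e-08) and at Lhx2 by -1.25 (SE 0.28, 2.37-fold; edgeR, adjusted p = 0.000112). These are 3 of 4 genes tested, where 32.5% of the loci tested were called and 18.0% called lower; Emx1 and Emx2 were below the count filter. Pax6 went the other way, with 137, 81.5 and 188 IPM against 60.2 and 70.9, but at 0.65 it missed the threshold (SE 0.35; edgeR, adjusted p = 0.135). Of the marker loci tested, 6 of 9 for astrocytes were called higher in BrokenHeart (median 1.03), 6 of 10 for neurons lower (median -0.77) and 5 of 6 for interneurons lower (median -1.43), and their part was not tested. BrokenHeart and C57bl6J differ in construct, read-out and library preparation, which cannot be told apart here.

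**Figure D4:**
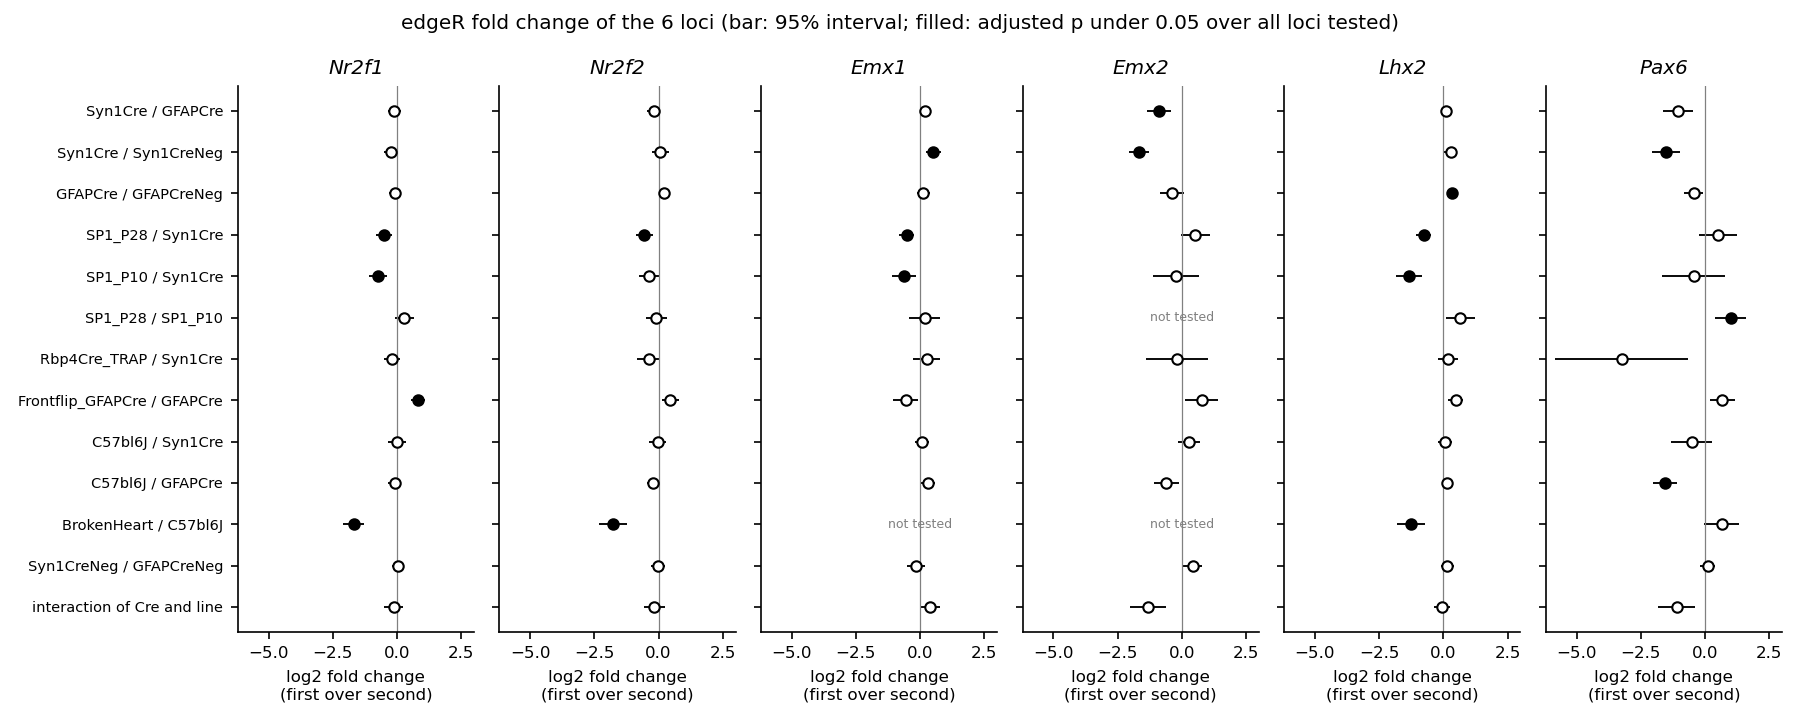
Log2 difference of each gene in each comparison with TMM scaling, with bars of the 95% interval; filled points have an edgeR adjusted p under 0.05. The comparison with Frontflip_GFAPCreNeg is left out, and for the interaction the value is the change in the Syn1 line minus that in the GFAP line. Emx2 and Pax6 lie below 0 in Syn1Cre against Syn1CreNeg (-1.67 and -1.53), whereas Nr2f1 lies between -0.22 and -0.08 in the comparisons of Syn1Cre with GFAPCre and of each with its control.

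For Pax6 the order of group means, from low to high, was Rbp4Cre_TRAP (16.5 ± 20.1 IPM, SD, n = 4), C57bl6J (65.5 ± 7.58, n = 2), Syn1Cre_SP1_P10 (107 ± 18.9, n = 3), Syn1Cre (108 ± 77.1, n = 6), BrokenHeart (136 ± 53.4, n = 3) and GFAPCre (203 ± 69.3, n = 6). Syn1Cre_SP1_P28 (221 ± 68.9, n = 4), Syn1CreNeg (261 ± 58.4, n = 6), GFAPCreNeg (265 ± 99.4, n = 6) and Frontflip_GFAPCre (309 ± 116, n = 3) followed. Rbp4Cre_TRAP, C57bl6J and Syn1Cre_SP1_P10 do not overlap in their animals, and every later neighbour overlaps the one before it. For Emx2 the means ran from 35.6 ± 24.4 in Rbp4Cre_TRAP over 43.4 ± 12.6 in Syn1Cre and 78.4 ± 33.7 in GFAPCre to 118 ± 40.5 in Syn1CreNeg and 125 ± 22.3 in Frontflip_GFAPCre. In the Emx2 order every group overlaps the next; Frontflip_GFAPCreNeg was left out of both orders. Emx1 was highest in Rbp4Cre_TRAP (165 ± 31.4) and, of the groups of animals read from RNA other than Frontflip_GFAPCreNeg, lowest in Frontflip_GFAPCre (64.3 ± 9.87).

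Other genes of cortical patterning, a list of 32 that holds none of the 6, were counted in the same fits. Between Syn1Cre and GFAPCre 28 passed the filter, 0 were called higher and 2 lower, with a median log2 difference of -0.04 against -0.01 over all loci, of which 1.95% were called. They were Nr2e1, a nuclear receptor of neural stem cells (-0.92; edgeR, adjusted p = 0.0268), and Otx1, a homeobox factor of deep-layer neurons (-0.76; edgeR, adjusted p = 0.0330). Between Syn1Cre and Syn1CreNeg 24 passed the filter, 3 were called higher and 11 lower, with a median of -0.26 against 0.01 over all loci, of which 28.3% were called. The lowest were Gli3, an effector of hedgehog signalling (-1.39), Nr2e1 (-1.37), Otx1 (-1.26), the FGF receptor Fgfr3 (-1.20) and the layer 4 factor Rorb (-0.82). Between GFAPCre and GFAPCreNeg, 24 passed, 0 were called higher and 3 lower: Gli3 (-1.09), Lef1 (-0.67), which carries Wnt signals to DNA, and Rorb (-0.64). The median there was -0.15 against 0.00 over all loci, of which 7.35% were called.

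In Rbp4Cre_TRAP 1 of 27 genes of that list was called, Fezf2, the factor that specifies subcortical projection neurons, and it was higher than in Syn1Cre, where 0.543% of all loci were called. Between Syn1Cre_SP1_P28 and Syn1Cre_SP1_P10, 2 of 15 were called higher, Gli3 and Rorb, where 7.03% of all loci were called. Against Syn1Cre, 4 of 29 were called higher and 11 lower at P28, and 1 of 28 higher and 13 lower at P10. Taken in either direction, these are close to the shares over all loci, 54.4% and 43.0%. Calls in the list leaned more to lower, since 27.5% of all loci were called lower at P28 and 21.0% at P10. The list median with TMM was -0.32 against -0.06 over all loci at P28, and -0.54 against -0.18 at P10. The direction of calls depended on TMM as above, and the lean of the list was not tested.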

How the data were processed

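Insertions were mapped in 46 animals in 11 groups and in the N2a line, from 194 GEO samples that the authors combined into 47 deposited tables. Each table holds 1 line per insertion with position, strand, barcode and a read count. The read counts are raw, as deposited by the authors, judged from their values. The submitters' processing notes name mm10, Novoalign and Bowtie2, and versions are not given in the sources used here. A line was counted as 1 insertion, at any read count of at least 1. Against RefSeq promoter sequences, starts in the self-reporting tables fell on TTAA for 100% of insertions and those in BrokenHeart for 96.9% to 98.2%, against at most 0.741% at another offset.

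Insertions were counted in 21631 RefSeq protein-coding loci (body with 50 kb on each side) and tested with edgeR 4.0.16 (R 4.3.3), quasi-likelihood, filterByExpr, all insertions of a table as library size, TMM and Benjamini-Hochberg adjustment over all loci tested, with only the groups compared in each model; calls had an adjusted p under 0.05. DESeq2 1.42.0, no TMM, no filter, distinct positions, 2 or more reads, 10 kb flanks, the body alone, a replicate block, a pool block and leaving out each animal were alternatives. The replicate block kept only animals whose number occurs in both groups. Where group sizes differ, it therefore also changed which animals were compared. The script was tested on simulated data with 3-fold changes at some loci. Of the changed loci tested, 100% were recovered for Syn1Cre against GFAPCre. For Rbp4Cre_TRAP against Syn1Cre 38.1% were recovered, and for Frontflip_GFAPCre against Frontflip_GFAPCreNeg 12.4%. For the starts at P10 against Syn1Cre 24% were recovered, and 10% of the calls were false. In those comparisons a change of that size can go uncalled. The 6 genes and all lists were chosen with earlier results of these data known. The genes named are the 6, and of the patterning list up to 5 per comparison by size of change among those called in the comparisons of Syn1Cre, GFAPCre and their controls; the genes of that list named for Rbp4Cre_TRAP and between the ages were chosen after their values were seen. Syn1Cre_SP1_P28 animals 1 and 3 differed by no more than sampling noise over loci, as did some other pairs of animals. They shared 12 of their lines at these loci (450 and 318). Animals 1 and 2 of that group shared 1, and animals 2 and 3 shared 0. Animals 1 and 3 were kept apart, and the reason for the shared lines was not tested.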

Additional observations from a re-analysis of the deposited data

Results flagged for a closer look

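In 4 of 36 combinations of gene and group with 4 to 6 animals, 1 animal stood further from the rest than Dixon's 95% limit; chance gives about 1 in 20. GFAPCreNeg animal 6 was the highest of its group at Nr2f1 (1379 IPM, next 1035), Emx2 (197, next 106) and Pax6 (466, next 244). It also had the highest astrocyte marker sum, 5398, and the fewest insertions of its group, 208057. Syn1Cre animal 5 was the highest of its group at Pax6 (255, next 113), with a marker sum of 3480 and 443158 insertions, the fewest in its group. The part of marker level and depth in these values was not tested.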

How the results depend on the processing

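Of the values for single genes under an alternative, 1342 kept their direction (or rounded to 0) and their side of the threshold, 53 newly passed it, 69 no longer passed and 57 changed sign. Of the sign changes 5 had a call in either fit: Nr2f1 in Syn1Cre_SP1_P28 against Syn1Cre over distinct positions (0.10) and the start windows without TMM, Nr2f1 0.20 and Nr2f2 0.46 at P28 and 0.14 and 0.81 at P10. The other 52 had none. With the body alone they were Nr2f1 0.14 and Nr2f2 0.09 in Syn1Cre against GFAPCre, Nr2f1 0.03 in Syn1Cre against Syn1CreNeg, Nr2f1 0.04 in GFAPCre against GFAPCreNeg, Pax6 0.42 in Syn1Cre_SP1_P10 against Syn1Cre, Nr2f1 -0.01 in Syn1Cre_SP1_P28 against Syn1Cre_SP1_P10, Nr2f2 0.05 in C57bl6J against GFAPCre, Nr2f1 0.03 and Nr2f2 0.22 in the interaction. Over distinct positions they were Nr2f2 -0.13 in Syn1Cre against Syn1CreNeg, Emx2 0.11 in Syn1Cre_SP1_P10 against Syn1Cre, Nr2f1 0.51 in Rbp4Cre_TRAP against Syn1Cre, Lhx2 -0.19 and Emx1 -0.03 in C57bl6J against Syn1Cre, Lhx2 -0.03 in C57bl6J against GFAPCre, Pax6 -0.13 in Frontflip_GFAPCre against Frontflip_GFAPCreNeg. Without TMM they were Nr2f1 0.01 in GFAPCre against GFAPCreNeg, Emx2 0.27, Pax6 0.06 and Nr2f2 0.12 in Syn1Cre_SP1_P10 against Syn1Cre, Lhx2 -0.06 and Emx1 -0.03 in C57bl6J against Syn1Cre, Pax6 -0.58 in Frontflip_GFAPCre against Frontflip_GFAPCreNeg, Nr2f2 0.02 in Syn1CreNeg against GFAPCreNeg. With the pool as a block they were Nr2f1 0.07 in GFAPCre against GFAPCreNeg. With the replicate block they were Emx2 0.14 and Pax6 0.46 in Syn1Cre_SP1_P10 against Syn1Cre, Emx1 -0.05 in Syn1Cre_SP1_P28 against Syn1Cre_SP1_P10, Emx2 0.04 in Rbp4Cre_TRAP against Syn1Cre, Pax6 0.35 in C57bl6J against Syn1Cre, Nr2f1 0.16 in C57bl6J against GFAPCre, Pax6 -0.03 in Syn1CreNeg against GFAPCreNeg. With 10 kb flanks they were Pax6 0.04 in Syn1Cre_SP1_P10 against Syn1Cre, Emx1 -0.04 in Rbp4Cre_TRAP against Syn1Cre, Emx1 0.02 in Syn1CreNeg against GFAPCreNeg. With 2 or more reads they were Emx1 -0.11 in Syn1Cre_SP1_P28 against Syn1Cre_SP1_P10, Emx1 -0.07 in Rbp4Cre_TRAP against Syn1Cre, Nr2f2 0.01 in C57bl6J against Syn1Cre, Nr2f1 0.09 in C57bl6J against GFAPCre, Pax6 -0.37 in Frontflip_GFAPCre against Frontflip_GFAPCreNeg. Without 1 animal they were Nr2f2 in Syn1Cre against Syn1CreNeg from -0.10 to 0.18, Nr2f1 in GFAPCre against GFAPCreNeg from -0.12 to 0.06, Emx1 in Syn1Cre_SP1_P28 against Syn1Cre_SP1_P10 from -0.11 to 0.43, Nr2f2 in Syn1Cre_SP1_P28 against Syn1Cre_SP1_P10 from -0.31 to 0.07, Emx2 in Rbp4Cre_TRAP against Syn1Cre from -0.46 to 0.05, Emx1 in C57bl6J against Syn1Cre from -0.14 to 0.30, Nr2f2 in C57bl6J against Syn1Cre from -0.10 to 0.02, Nr2f2 in Syn1CreNeg against GFAPCreNeg from -0.14 to 0.16. The cause was not tested.

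The count of genes called moved by over 1.5 times as follows. Where group sizes differ, counts with the replicate block also rest on fewer animals. Syn1Cre against GFAPCre went from 1 to 2 without TMM, without the filter, with 10 kb flanks, with the replicate block and with Syn1Cre animals 1 to 3 only, and to 0 with 2 or more reads and with the body alone. GFAPCre against GFAPCreNeg went from 1 to 0 over distinct positions and with the pool block. Syn1Cre_SP1_P28 against Syn1Cre went from 4 to 2 without TMM and 1 over distinct positions or the body alone, and Syn1Cre_SP1_P10 against Syn1Cre from 3 to 1 in the same settings. Between the ages the count went from 1 to 0 without TMM, with DESeq2, without the filter, over distinct positions, with 2 or more reads, 10 kb flanks and the body alone, and to 2 with the replicate block. Rbp4Cre_TRAP against Syn1Cre went from 0 to 1 with 10 kb flanks (Nr2f2, -1.02; edgeR, adjusted p = 0.0354). Frontflip_GFAPCre against GFAPCre went from 1 to 2 with DESeq2, 3 over distinct positions, 0 with the body alone and 4 with the replicate block. C57bl6J against Syn1Cre went from 0 to 1 with the replicate block, C57bl6J against GFAPCre from 1 to 2 over distinct positions and the body alone, and BrokenHeart against C57bl6J from 3 to 1 with the body alone. Frontflip_GFAPCre against Frontflip_GFAPCreNeg went from 1 to 0 without TMM, over distinct positions, with 10 kb flanks, the body alone and the replicate block. The interaction went from 0 to 1 without TMM, without the filter, with 10 kb flanks and with the body alone, and both start tests from 2 to 0 without TMM. Within 1.5 times, Syn1Cre against Syn1CreNeg went from 3 to 4 without TMM, with 10 kb flanks and with the body alone, Syn1Cre_SP1_P28 against Syn1Cre from 4 to 5 with 10 kb flanks and 6 with the replicate block, and Syn1Cre_SP1_P10 against Syn1Cre from 3 to 2 with DESeq2 and with 2 or more reads. BrokenHeart against C57bl6J went from 3 to 4 without TMM, with DESeq2, without the filter and with the replicate block, and to 2 over distinct positions. Both start tests went from 2 to 3 with DESeq2, without the filter and with 2 kb on each side.

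Leaving out 1 animal gave 0 to 2 calls in Syn1Cre against GFAPCre, 2 to 4 in Syn1Cre against Syn1CreNeg, 0 to 2 in GFAPCre against GFAPCreNeg, 3 to 6 and 2 to 3 for SP1 at P28 and P10 against Syn1Cre, 0 to 1 between the ages, 0 for Rbp4Cre_TRAP and for C57bl6J against Syn1Cre, and 0 to 3 for Frontflip_GFAPCre against GFAPCre. It gave 1 to 2 in C57bl6J against GFAPCre, 3 to 4 for BrokenHeart, 0 to 1 against Frontflip_GFAPCreNeg and between the controls, 0 to 2 for the interaction and 2 in each start test against Syn1Cre. Where it left C57bl6J with 1 animal, that animal was assumed to vary like the other group.

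Calls over all loci ranged over the alternatives as follows: Syn1Cre against GFAPCre 335, from 193 to 2686; against Syn1CreNeg 4438, from 1807 to 4788; GFAPCre against GFAPCreNeg 1167, from 101 to 1197; SP1 against Syn1Cre 9284, from 2839 to 9732 (P28), and 7517, from 2280 to 7720 (P10); between the ages 582, from 196 to 933; Rbp4Cre_TRAP 92, from 80 to 351. Frontflip_GFAPCre against GFAPCre had 348, from 89 to 501, and against its control 136, from 19 to 224; C57bl6J against Syn1Cre 137, from 8 to 2389, and against GFAPCre 2878, from 1131 to 3312; BrokenHeart 1485, from 605 to 1632; the controls 18, from 3 to 49; the interaction 103, from 46 to 125; and the starts 2212, from 231 to 4641, 2090, from 342 to 3471, and 17, from 0 to 68. Without TMM the share of calls that were higher moved from 48.7% to 68.0% in Syn1Cre against GFAPCre, 40.7% to 58.6% against Syn1CreNeg, 15.7% to 39.5% in GFAPCre against GFAPCreNeg, 64.1% to 38.0% between the ages and 44.6% to 65.9% for BrokenHeart. Same-numbered animals did not deviate together in every pair of any comparison. This cannot exclude shared litters or batches, which the labels do not state, and the block is given only here. In C57bl6J against Syn1Cre the block kept animals 1 and 2 of each group, so its 2389 calls also come from a different set of animals. Depth limits the 2341 to 9601 insertions of Frontflip_GFAPCreNeg and the 24408 to 57014 of Rbp4Cre_TRAP most.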

Other observations

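The loci whose log2 level over 9 groups was most like each gene's were found by Pearson's correlation over the group means (pseudocount of 1 IPM, mean level of at least 5). They share libraries and depth with the gene and are a description. For Pax6 they were Tectb (0.993), Stim2 (0.992) and Taf4b (0.991), and 78 of 17148 loci were above 0.95. For Emx2 they were Specc1 (0.989), Mt4 (0.976) and Kctd14 (0.974), with 13 above 0.95. For Emx1 they were Tmem266 (0.984), Htr1b (0.983) and Psmd11 (0.982), with 36 above 0.95. Nr2f1 (Fam149a 0.969, Tlr3 0.961, Tnks2 0.959) and Nr2f2 (Taf7l 0.965, Lrr1 0.965, Rpl36al 0.961) had 5 and 4 such loci. Lhx2 (Araf 0.957, Glp1r 0.957, Gm11546 0.948) had 2. Tlr3 and Fam149a are neighbours on chromosome 8, and so their loci can share insertions.

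The share of all insertions that fell in the 6 loci together was 0.171% to 0.231% in Syn1Cre, 0.166% to 0.235% in GFAPCre and 0.274% to 0.336% in Frontflip_GFAPCre. It was 0.0692% to 0.0870% in BrokenHeart and 0.0418% in N2a.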
